A study of Mus musculus with 6 samples.

Results

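Of the transcription factors that guide lens fiber cells, 9 were followed in RNA of newborn mouse eyeballs: Prox1, Hsf4, Maf, Mafg, Mafk, Sox1, Pitx3, Foxe3 and Gata3. They were chosen by name, as 9 of the 12393 genes to which the array annotation gives at least 1 probe set of their own, and a probe set is a group of short probes that report on one transcript. Mafg had 2 such probe sets and the other genes had 1 each. Each gene was read from its probe set of highest mean signal. The arrays came from whole eyeballs at postnatal day 1, with 3 Brg1 cKO and 3 wild-type pups and 1 array per eyeball. Brg1 cKO pups carried homozygous floxed alleles of Brg1, which Smarca4 encodes as the ATPase of a chromatin remodeling complex, and 1 copy of the Le-Cre transgene, on a mixed background. Le-Cre drives recombination in surface ectoderm, from which lens, corneal epithelium and eyelid epidermis arise. The study describes deletion of the floxed alleles as incomplete and the eye defects as variable. The controls are labelled wild type, and the study's array methods likewise give wild-type littermates of matched stage. Elsewhere the study names Brg1 flox/flox mice as its controls for this line. It describes neither these nor Le-Cre mice as differing in appearance from wild type. No array of Le-Cre alone is among the 6, so that effects of the transgene and of Brg1 loss on RNA cannot be told apart from these arrays.

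The vertebrate lens is made of a front sheet of dividing epithelial cells and a mass of fiber cells that leave the cell cycle, elongate, fill with crystallins and finally degrade their nuclei. A small set of DNA-binding proteins guides these steps. Prox1, a homeodomain protein, is needed for fiber elongation and cell cycle exit. Hsf4 is the heat shock factor of late fiber differentiation, on which the nuclease gene Dnase2b depends in mouse. Maf, also called c-Maf, and the HMG-box protein Sox1 activate crystallin genes. Mafg and Mafk are small Maf proteins, which lack an activation domain and act as dimers with CNC or Bach proteins. Gata3 restrains division in fiber cells. Foxe3, a forkhead protein, and Pitx3, a homeodomain protein, maintain the lens epithelium, and mutations in either disturb the mouse lens early.

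Several facts of the series bear on all values. Values are log2 of the authors' RMA intensities, and 1 unit is a doubling of signal. Median intensity lay between 169 and 185 in the 6 arrays. A log2 value of 4.84 marked the 25th percentile of all values. Lower values were read, but below about this level differences are compressed. The deleted gene, Smarca4, gave differences of 0.18 (SE 0.19, adjusted p = 0.866) and -0.70 (SE 0.30, adjusted p = 0.598) in its probe sets, so that it does not check the labels. In its brightest probe set Xist read 4.88 in Brg1 cKO replicate 1 and between 12.30 and 12.92 elsewhere, and replicate 1 was therefore taken as the only male. Lens tissue was represented in every array, since 3 of 7 listed fiber markers were measured (Mip, Gja3 and Bfsp1) and their summed intensity was 9275 to 10210 for wild-type and 668 to 2669 for Brg1 cKO arrays. The median SD of a probe set was 0.215 in wild-type and 0.297 in Brg1 cKO arrays. Actin control probe sets near the 3' end exceeded those near the 5' end, a gap that grows as RNA degrades, by 0.93 to 1.12 in wild-type and 0.98 to 1.34 in Brg1 cKO arrays.

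Prox1 fell in Brg1 cKO eyeballs, and 1 of the 9 factors, Prox1 itself, passed the test over all probe sets. Hsf4 and Gata3 also had every Brg1 cKO value below every wild-type value, but their differences did not pass. Maf, Mafg, Mafk, Sox1, Pitx3 and Foxe3 had overlapping values in both genotypes, of which Sox1 and Foxe3 had means below the 25th percentile. A pass was an adjusted p under 0.05 in limma with Benjamini-Hochberg adjustment, and 0.203% of the 22626 probe sets passed it as lower in Brg1 cKO and 0.508% in either direction. At an unadjusted p under 0.05 Prox1, Hsf4 and Gata3 passed, 3 of 9, against 8.4% of probe sets. Of the 9 factors, 3 had non-overlapping values that were lower in Brg1 cKO and 0 had non-overlapping values that were higher, against 6.44% and 7.31% of all probe sets. Whole eyeballs were measured, and fewer cells that express a factor cannot be told apart from less of its RNA per cell.

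**Figure D1:**
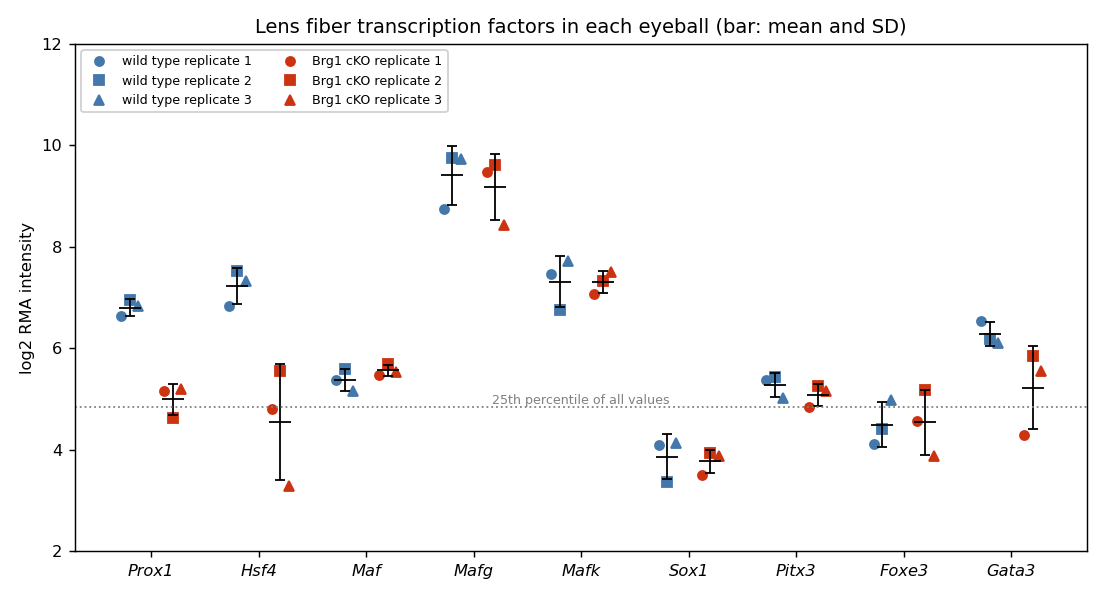
Log2 RMA intensity (vertical axis) of the 9 factors in each array, with wild type in blue and Brg1 cKO in red, a marker shape per replicate, black bars that give each mean with its SD (3 arrays), and a dotted line at the 25th percentile of all values (4.84). Prox1, Hsf4 and Gata3 do not overlap between the genotypes, and the other 6 factors do.

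Prox1 read 6.64, 6.94 and 6.83 across wild-type replicates 1 to 3 against 5.15, 4.63 and 5.19 across Brg1 cKO replicates 1 to 3. The lowest wild-type array lay 1.45 above the highest Brg1 cKO array, and both groups were tight, with SDs of 0.16 and 0.31. The mean fell 3.53-fold (log2 -1.82, SE 0.21, 95% interval -2.32 to -1.32, limma adjusted p = 0.021). Permuting the 6 values exactly (two-sided) gave p = 0.1, the smallest that 3 arrays against 3 allow. The p of Prox1 had rank 49 among the 22626 probe sets, and 0.499% of them had a more negative difference. The Brg1 cKO mean of 4.99 lay near the 25th percentile, where folds are compressed. The difference stayed between -1.92 and -1.64 with any 1 array left out, but the adjusted p was 0.0911, 0.109 and 0.112 without wild-type replicates 1 to 3, and 0.0574 without Brg1 cKO replicate 3. In its other model, embryonic lenses with a dominant-negative form of Brg1, the study reports higher Prox1 RNA. That model differs in tissue, age and genotype and was not compared here.

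Hsf4 had a larger mean difference than Prox1 and a wider spread. It read 6.84, 7.53 and 7.32 across wild-type replicates 1 to 3 against 4.79, 5.54 and 3.28 across Brg1 cKO replicates 1 to 3. All Brg1 cKO values were lower, replicate 3 by far the most, and the groups were 1.30 apart at their closest. The mean difference was -2.69 (SE 0.54, 95% interval -3.95 to -1.44), or 6.47-fold, with an adjusted p of 0.126 and an exact permutation p of 0.1. The SD was 0.35 in wild-type and 1.15 in Brg1 cKO arrays, and 2 of the 3 Brg1 cKO values lay under the 25th percentile. Without Brg1 cKO replicate 2 the difference was -3.19 (adjusted p = 0.0388), and without replicate 3 it was -2.06 (adjusted p = 0.106). Leaving out a wild-type array gave adjusted p-values from 0.362 to 0.394.

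Of the factors without overlap, Gata3 had the smallest difference. It read 6.54, 6.19 and 6.11 across wild-type replicates 1 to 3 against 4.29, 5.84 and 5.54 across Brg1 cKO replicates 1 to 3. Replicate 1 stood well below the rest, and the highest Brg1 cKO value lay only 0.27 below the lowest wild-type value. The mean difference was -1.06 (SE 0.40, 95% interval -1.98 to -0.13), or 2.08-fold, with an adjusted p of 0.521 and an exact permutation p of 0.1. Leaving out Brg1 cKO replicate 1, the male, left a difference of -0.59 (adjusted p = 0.535). Template matching was rebuilt from the thresholds the study states, a correlation with the genotype pattern at p under 0.05 and a fold over 1.5. Its calls are not the study's gene list, and the study reports more genes than were selected here. By the rebuilt matching Prox1 and Hsf4 were selected and Gata3 was not. Of all probe sets, 1.64% were selected as lower, 1.98% as higher and 3.62% in either direction.

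**Figure D2:**
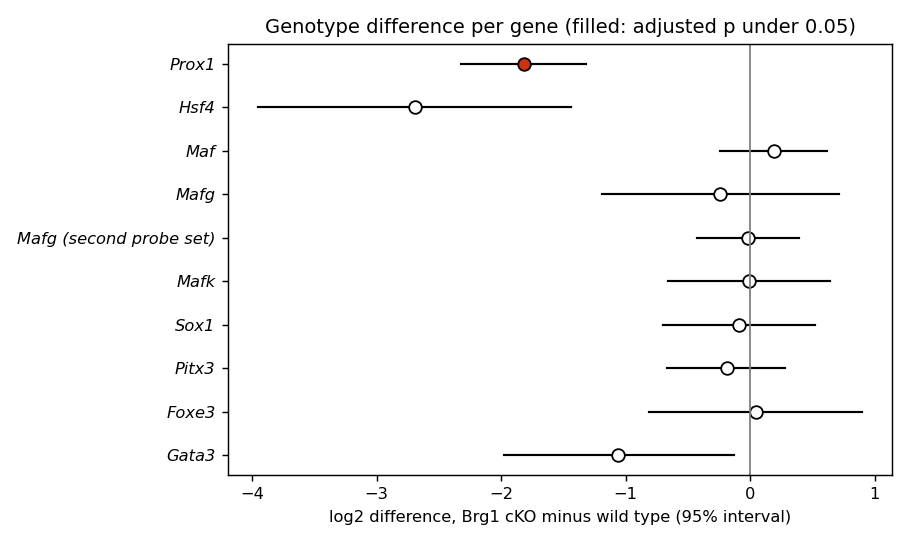
Log2 difference between the genotypes (horizontal axis, Brg1 cKO minus wild type) for each factor and for the second probe set of Mafg, with lines for the 95% interval of the limma model. Prox1, at -1.82, is the only filled point (adjusted p under 0.05), and intervals of Hsf4 and Gata3 also lie below 0.

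The promoters of these factors were set beside those of all genes. RefSeq windows of 300 bases, from 250 before to 50 after a start site, were at hand for 7 of the 9 factors, with 2 start sites for Prox1, and Hsf4 and Maf have no entry in the table used. Shown are Prox1, which fell, Gata3, whose values did not overlap, and Dnase2b, the nuclease gene that depends on Hsf4 in mouse. All are on assembly GRCm38.p6 and on the minus strand, written 5' to 3' in the direction of the gene. Capitals mark matches on either strand to a heat shock element core (GAANNTTC or TTCNNGAA), the Maf recognition core TGCTGA, the bicoid-type homeobox site TAATCC, the motif AGATAA of GATA factors or the motif AACAAT of Sox factors.
Prox1, first start site (chr1:190170778-190171077): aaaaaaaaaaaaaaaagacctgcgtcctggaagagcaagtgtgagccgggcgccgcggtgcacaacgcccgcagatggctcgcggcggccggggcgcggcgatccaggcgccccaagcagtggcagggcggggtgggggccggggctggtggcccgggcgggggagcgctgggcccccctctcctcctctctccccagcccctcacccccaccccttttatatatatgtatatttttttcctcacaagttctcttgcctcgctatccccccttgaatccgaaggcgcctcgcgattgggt
Prox1, second start site (chr1:190169466-190169765): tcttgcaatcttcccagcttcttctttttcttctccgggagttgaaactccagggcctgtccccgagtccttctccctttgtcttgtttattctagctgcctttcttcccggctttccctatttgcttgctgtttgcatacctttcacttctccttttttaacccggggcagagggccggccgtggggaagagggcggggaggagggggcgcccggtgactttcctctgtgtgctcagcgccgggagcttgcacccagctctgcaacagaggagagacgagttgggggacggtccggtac
Gata3 (chr2:9878551-9878850): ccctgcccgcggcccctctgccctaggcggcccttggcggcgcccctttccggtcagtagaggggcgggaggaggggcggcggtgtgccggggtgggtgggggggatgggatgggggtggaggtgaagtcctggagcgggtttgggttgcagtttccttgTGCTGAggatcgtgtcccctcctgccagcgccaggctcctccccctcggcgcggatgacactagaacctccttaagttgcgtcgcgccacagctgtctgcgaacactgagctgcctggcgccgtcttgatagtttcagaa
Dnase2b (chr3:146615549-146615848): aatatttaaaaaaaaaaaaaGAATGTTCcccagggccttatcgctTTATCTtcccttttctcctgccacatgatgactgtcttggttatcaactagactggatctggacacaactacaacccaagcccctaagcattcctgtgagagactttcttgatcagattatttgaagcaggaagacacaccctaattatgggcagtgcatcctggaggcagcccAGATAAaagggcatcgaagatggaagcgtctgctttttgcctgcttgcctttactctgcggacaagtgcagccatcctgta
Both Prox1 windows held 0 matches to the 6 motifs. The Gata3 window held 1 Maf recognition core, which 19.5% of all 32851 windows hold. Among factors with overlapping values, the Mafk window held the same core and the Mafg window held 1 heat shock element core of the form TTCNNGAA, found in 8.52% of all windows, and those of Sox1, Pitx3 and Foxe3 held 0 matches. The Dnase2b window held 1 heat shock element core of the form GAANNTTC, found in 7.86% of all windows, and 2 matches to the GATA factor motif, found in 11.2%. Prox1 and Gata3 windows were rich in G and C (64.3% and 57.3% for Prox1, 67.3% for Gata3), against 45% in Dnase2b and a median of 52.7%. A match describes the letters in the window and not a bound site.

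The small Maf genes Mafg and Mafk were well above the 25th percentile in all 6 arrays and overlapped between the genotypes. Mafk read 7.46, 6.76 and 7.72 across wild-type and 7.07, 7.32 and 7.51 across Brg1 cKO replicates 1 to 3. Its Brg1 cKO values lay within the range of the wild-type values, and the difference was -0.01 (SE 0.28, 95% interval -0.66 to 0.64, adjusted p = 0.997). Mafg was read by its brighter probe set at 8.74, 9.76 and 9.74 across wild-type and 9.48, 9.62 and 8.42 across Brg1 cKO arrays. One array of each genotype was about 1 unit lower than the rest, and the difference was -0.24 (SE 0.40, 95% interval -1.19 to 0.71, adjusted p = 0.919). The second probe set of Mafg was steadier, from 8.33 to 8.62 for wild-type and from 8.35 to 8.61 for Brg1 cKO arrays. Its difference of -0.02 had a narrower 95% interval, from -0.43 to 0.39. For Mafk and both Mafg probe sets the lower end of the interval lay above -1.32, the upper end for Prox1, which compares intervals and is no test of a difference between genes.

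Maf, Pitx3, Sox1 and Foxe3 were measured at low signal. Maf read 5.38, 5.59 and 5.15 across wild-type and 5.48, 5.69 and 5.52 across Brg1 cKO replicates 1 to 3. The values overlapped, with a difference of 0.19 (SE 0.18, 95% interval -0.24 to 0.62, adjusted p = 0.846). Pitx3 read 5.37, 5.43 and 5.01 across wild-type and 4.84, 5.25 and 5.16 across Brg1 cKO arrays, a difference of -0.19 (SE 0.20, 95% interval -0.67 to 0.28, adjusted p = 0.861). Both genes lay within 1 unit of the 25th percentile in all 6 arrays, which leaves little room for a lower value to show. Sox1 was below the 25th percentile in all 6 arrays, at 4.09, 3.35 and 4.13 across wild-type and 3.50, 3.94 and 3.87 across Brg1 cKO arrays, and its difference was -0.09 (SE 0.26, 95% interval -0.70 to 0.52, adjusted p = 0.958). Foxe3 read 4.10, 4.41 and 4.97 across wild-type and 4.56, 5.17 and 3.88 across Brg1 cKO arrays, and the array order was mixed, with a difference of 0.05 (SE 0.37, 95% interval -0.81 to 0.90, adjusted p = 0.984). The low signal of Sox1 and Foxe3 limits what these arrays can say of them, and the sign of the Sox1, Foxe3, Mafk and Mafg differences changed in some fits with an array left out.

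Prox1, Hsf4 and Gata3 were lowest in different Brg1 cKO eyeballs. Against the wild-type mean, Hsf4 lay at -2.43, -1.69 and -3.95 in Brg1 cKO replicates 1 to 3, lowest in replicate 3. Prox1 lay at -1.66, -2.18 and -1.62, lowest in replicate 2, and Gata3 at -1.99, -0.44 and -0.74, lowest in replicate 1. Of 19 genes listed for lens fiber structure and crystallins, 14 were measured, and their median shift was -2.62, -1.15 and -3.43, the same order of arrays as for Hsf4. Gja3, a connexin of fiber gap junctions, fell by 3.15 (SE 0.43, adjusted p = 0.0319) and Caprin2, an RNA-binding protein gene, by 2.25 (SE 0.30, adjusted p = 0.0287), and 2 of the 14 passed. Among the mutants, replicate 2 thus read highest for lens fiber genes and lowest for Prox1. The mutant Prox1 values, from 4.63 to 5.19, lay near the 25th percentile, where differences are compressed. Replicate 2 also had the lowest array quality weight in limma (0.465) and the largest actin gap (1.34) of all arrays. Whether these limits bear on the order of the arrays was not tested.

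**Figure D3:**
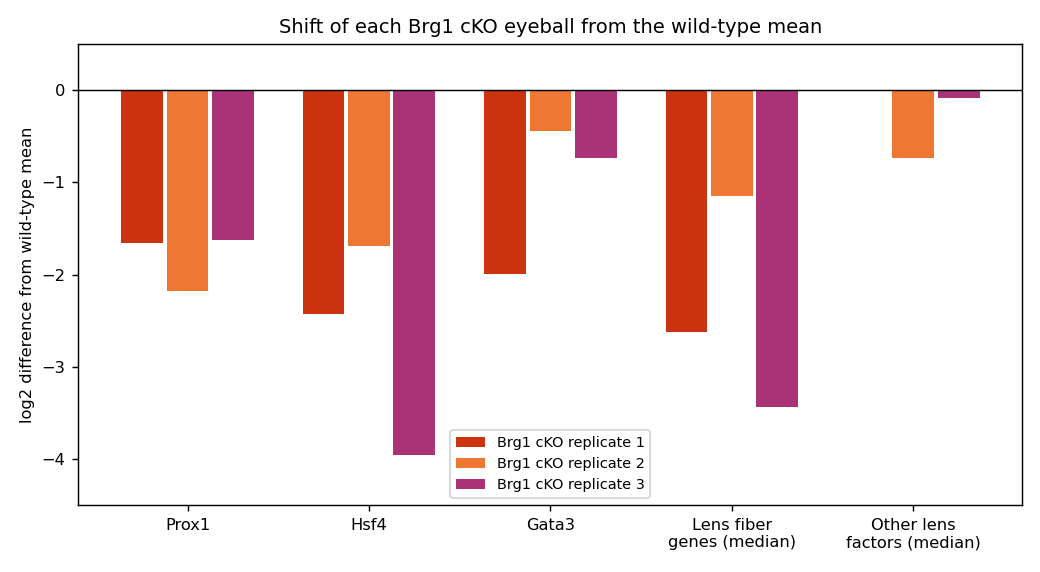
Log2 difference of each Brg1 cKO array from the wild-type mean (vertical axis) for Prox1, Hsf4 and Gata3, and the median of the same difference over 14 lens fiber genes and over 13 other lens transcription factors. Hsf4 and the lens fiber genes are lowest in replicate 3 (-3.95 and -3.43), Prox1 (-2.18) and the other factors (-0.74) in replicate 2, and Gata3 (-1.99) in replicate 1.

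The factors were next set against the lens fiber genes of the same array, as the log2 value of the factor minus the mean of the 14 genes. That mean was 12.30, 12.52 and 12.45 across wild-type and 9.83, 11.20 and 8.70 across Brg1 cKO replicates 1 to 3. The ratio of Hsf4 to it was -5.46, -4.99 and -5.13 across wild-type and -5.04, -5.67 and -5.43 across Brg1 cKO arrays. These overlapped, with a mean difference of -0.18 and SDs of 0.24 and 0.32 (exact permutation p = 0.5). The sign is not settled, since the difference was 0.22 without crystallins in the list and 0.41 with a pseudocount of 16. The ratio of Prox1 was nearly constant in wild-type arrays, at -5.66, -5.57 and -5.62, and ranged over -4.69, -6.58 and -3.52 in Brg1 cKO arrays. Its mean difference was 0.69, smaller than the SD of 1.54 among Brg1 cKO arrays (exact permutation p = 0.6). Leaving out Brg1 cKO replicate 2 gave 1.52, and leaving out replicate 3 gave -0.01. The Prox1 difference was 1.09 without crystallins in the list and 1.01 with the pseudocount. For Gata3, Mafg and Mafk all Brg1 cKO ratios were above all wild-type ratios, with differences of 1.45, 2.27 and 2.50 (exact permutation p = 0.1 each). By construction, a factor with a steady level gives a higher ratio wherever the lens fiber genes read lower, and such a ratio shows unequal change only. Prox1, Hsf4 and Gata3 reached the low range of signal in Brg1 cKO arrays, which limits how far their ratios could go down. The lens fiber mean differed by -2.51, and the wild-type means of Prox1 and Gata3 were 6.80 and 6.28. A fall as large would take both below the 25th percentile, where differences are compressed. Values there were still read, such as 3.28 for Hsf4 in Brg1 cKO replicate 3. Whether compression bears on the higher Gata3 ratio was not tested. Maf, Pitx3, Sox1 and Foxe3 lay so near that range in wild type that their ratios had little room to do other than go up, and these are not given.

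**Figure D4:**
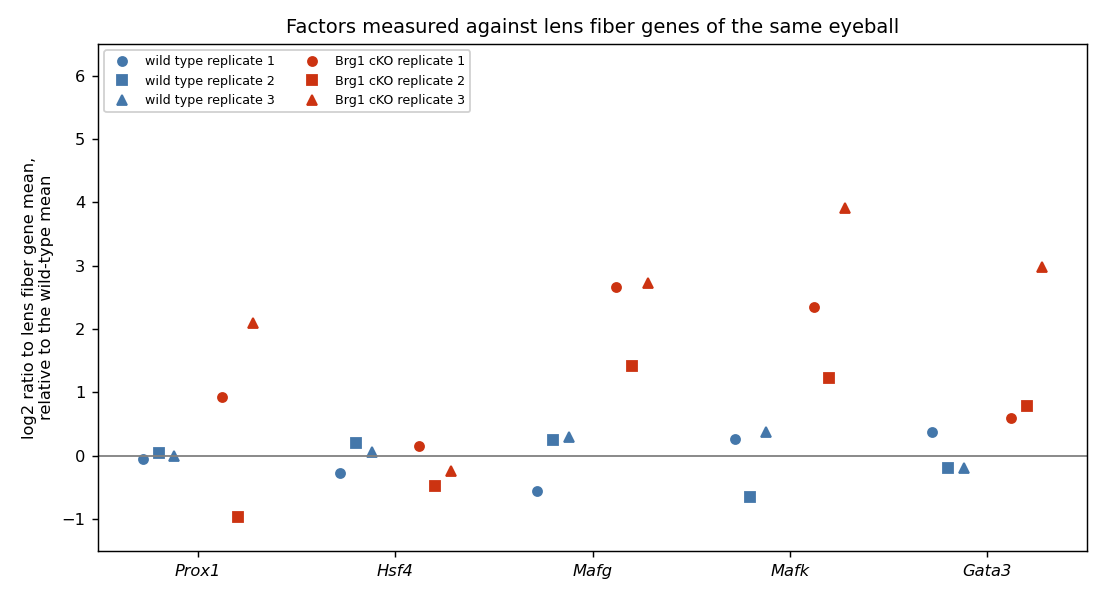
Log2 ratio of each factor to the mean of 14 lens fiber genes in the same array (vertical axis, with the wild-type mean of each factor set to 0), in wild type (blue) and Brg1 cKO (red), for the 5 factors with the highest wild-type signal. Hsf4 ratios overlap between the genotypes, Prox1 ratios are spread to both sides, and those of Mafg, Mafk and Gata3 are higher in all Brg1 cKO arrays.

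Genes known to depend on these factors in the mouse lens had mostly negative differences. Of 11 measured genes in a list of 12, 0 passed the test, and 9 had all Brg1 cKO values below all wild-type values, against 6.44% of all probe sets. Negative differences were found for 10, and the median difference was -2.02, against 0.02 over all 12393 genes. Crybb1, Cryaa, Cryba4, Crygs and Bfsp1 are also among the lens fiber genes read above, so that the 2 lists repeat the same values in part and are not separate observations. Dnase2b read 8.07, 8.52 and 8.90 across wild-type and 3.15, 5.78 and 2.67 across Brg1 cKO arrays, with replicate 2 again the highest mutant (difference -4.63, SE 0.75, adjusted p = 0.0618). Bfsp1, the gene of filensin in the beaded filament, had a difference of -4.48 (SE 0.84, adjusted p = 0.106). Fgfr3, a fibroblast growth factor receptor of differentiating fibers, read 8.38, 8.94 and 8.55 across wild-type and 6.96, 7.76 and 6.88 across Brg1 cKO arrays (difference -1.43, SE 0.28, adjusted p = 0.126). Its dimmer probe set differed by only -0.48. Cdkn1b and Cdkn1c, the cell cycle inhibitor genes tied to Prox1, differed by -0.35 (SE 0.41) and -0.79 (SE 0.35). These lists were compiled with earlier results of the same arrays known, and their medians describe the arrays only.

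Other lens transcription factors had smaller differences. Of 13, 0 passed, 10 were negative, and the median was -0.33. Non-overlapping lower values were found in 2, against 6.44% of all probe sets. Sox2, a partner of Pax6 on crystallin enhancers, read 10.22, 10.42 and 10.30 across wild-type and 9.65, 9.34 and 10.09 across Brg1 cKO arrays (difference -0.62, SE 0.22, adjusted p = 0.507). Tfap2a differed by -0.45 (SE 0.19, adjusted p = 0.591) and Sox11 by -0.66 (SE 0.30, adjusted p = 0.622). The list was lowest in Brg1 cKO replicate 2, with median shifts of -0.01, -0.74 and -0.09 in replicates 1 to 3. Most of these factors also act in the retina. Pax6, which acts in both lens and retina, read 12.26, 11.12 and 11.83 in Brg1 cKO replicates 1 to 3 and 12.03 to 12.09 in wild type.

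Partners and relatives of the Maf proteins showed 0 of 8 measured genes past the test in either direction. Their median difference was 0.22. Nfe2, a CNC partner of small Maf proteins known from blood cells, read 3.85, 4.18 and 4.52 across wild-type and 5.09, 5.71 and 4.91 across Brg1 cKO arrays (difference 1.06, SE 0.27, adjusted p = 0.263). It was the only non-overlapping member of the list, where 13.7% of all probe sets did not overlap in either direction. Its mean lay below the 25th percentile. Bach2 differed by -0.39 (SE 0.20) and Maff, a small Maf, by 0.65 (SE 0.40). Heat shock factors and genes likewise gave 0 of 8 past the test, with a median of -0.08 and all 8 overlapping between genotypes. The small heat shock gene Hspb1 differed by -0.16 (SE 0.40), and Hsf2 read 3.38 to 4.35 in all arrays, below the 25th percentile. Hsf1 was not analysed here. Among the inducible heat shock genes, Hspa1b differed by -0.19 (SE 0.30, adjusted p = 0.913).

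Markers of other cells that use these factors were read beside them. Of 8 genes of horizontal and amacrine cells, retinal neurons with Prox1, 7 were measured, 1 passed as higher and 0 as lower. The gene that passed, Calb1, read 4.01-fold higher (SE 0.24 on the log2 scale, adjusted p = 0.0217), though its dimmer probe set differed by -0.46. Their summed intensity was 1854 to 2142 in wild-type and 1096 to 1901 in Brg1 cKO arrays, with median shifts of 0.21, -0.85 and -0.10 for Brg1 cKO replicates 1 to 3, lowest in replicate 2 as for Prox1. Of 5 lymphatic endothelial genes, where Prox1 is also used, 4 were measured and 0 passed, with sums of 6568 to 7466 in wild-type and 6896 to 8192 in Brg1 cKO arrays. The part of these cells in the Prox1 difference was not tested.

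For Gata3, T cell and epidermal genes were read. The T cell genes Cd3e, Cd3g and Cd3d lay between 2.72 and 4.73 in all 6 arrays, all below the 25th percentile. Of 7 measured genes of T and innate lymphoid cells in a list of 8, 1 passed as higher, Il7r, with a difference of 3.27 (SE 0.37, adjusted p = 0.0181), though its dimmer probe set differed by 0.93. The sums of this list were 114 to 132 in wild-type and 194 to 221 in Brg1 cKO arrays. Il7r carried that gap: without it, likewise a later step, the sums were 108 to 121 for wild-type and 110 to 159 for Brg1 cKO arrays, and the list's median difference was 0.11. Of 7 measured epidermal genes in a list of 8, 0 passed, and the sums were 7924 to 10168 for wild-type and 3479 to 6861 for Brg1 cKO arrays. Their median difference was -0.02, and Krt15, a basal keratin chosen here after its values were seen, carried the sum, at 12.50, 12.47 and 12.28 across wild-type and 8.17, 10.81 and 9.55 across Brg1 cKO arrays. Without Krt15, a step added after seeing the data, the sums overlapped, at 2941 to 4493 for wild-type and 3190 to 5266 for Brg1 cKO arrays. Krt14, another basal keratin, and Lor, of the cornified layer, had differences of 0.87 (adjusted p = 0.383) and 0.79 (adjusted p = 0.546), with all Brg1 cKO values above all wild-type values. Their dimmer probe sets differed by 1.07 and -0.07 for Krt14 and by 0.45 and 1.12 for Lor. Of 10 macrophage genes, from cells that use Maf, all 10 had positive differences and 1 passed, Cd14 (5.92, SE 0.55, adjusted p = 0.00824), and the sums were 2144 to 3151 in wild-type and 4413 to 10737 in Brg1 cKO arrays. Skeletal muscle genes, from a tissue that uses Pitx3, gave 0 of 8 past the test and sums of 15726 to 28599 for wild-type and 13568 to 32749 for Brg1 cKO arrays. Whether these tissues had a part in the values of Gata3, Maf and Pitx3 was not tested.

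Genes whose pattern over the 6 arrays was most like that of Prox1 or Hsf4 were sought among 7129 genes of above-median signal. For Hsf4 these were Crygn (Pearson r = 0.99), a gamma-crystallin gene, Bfsp1 (0.983) and Dock5 (0.979), a guanine nucleotide exchange factor gene. For Prox1 they were Tmed7 (0.987), Tom1l1 (0.981) and Myo6 (0.977), an unconventional myosin gene, whose own differences were -0.37, -0.60 and -0.45 and did not pass. All points share the genotype contrast and 6 arrays are few, so that these correlations describe likeness only.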

How the data were processed

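RNA of 3 wild-type and 3 Brg1 cKO eyeballs was measured on Affymetrix mouse GeneChip arrays, after amplification of 50 ng of total RNA per sample. Per the labels and the study's methods, the authors processed the arrays with RMA, which adjusts background, equalises arrays and summarises probe sets (version not given in the sources used here). As deposited, each value is a linear intensity, and log2 was taken for all tests. Signals at either end of the scale are compressed, the table has no detection calls, and 6 arrays limit the precision. Groups and replicate numbers came from sample titles; p-values measure the spread between these eyeballs.

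Of 22690 rows, 64 control rows were left out. The platform annotation, which can be old, gave 1 gene to 20380 probe sets, several to 691 and none to 1555. Gene identifiers of 20351 were found in RefSeq (GRCm38.p6), and 0 symbols changed. Genotypes were compared with limma 3.58.1 in R 4.3.3 (two-sided, empirical Bayes moderation, Benjamini-Hochberg over all probe sets). Genes searched for likeness had means above the median of all probe sets. Exact permutation tests used scipy 1.17.1 and were not adjusted. The fit was tested on simulated data. Named genes are the 9 factors, genes of each related list past the threshold or up to 3 with the smallest p, and the 3 genes most correlated with Prox1 and with Hsf4; other named genes (Pax6, Cdkn1b, Cdkn1c, Hspb1, Hsf2, Krt14, Krt15, Lor and other markers) were chosen after their values were seen. Members, lists and tests were chosen with earlier results of these data known. Alternatives were the replicate number as a block, leaving out each array, a low-intensity filter, centring, repeated quantile normalization, a pseudocount of 16, a trended robust prior, array weights, other probe set choices and template matching rebuilt from the study's stated thresholds.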

Additional observations from a re-analysis of the deposited data

How the results depend on the processing

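Of 143 alternative values computed for the differences of the 9 factors, 125 kept their direction and side of the threshold. Most factors lay far from the threshold, so that keeping a side says little for them. For Prox1, the only factor that passed, 11 of 16 alternatives kept their side and 5 did not pass. Array quality weights and template matching each selected 2 factors in place of 1, Prox1 and Hsf4, and with an array left out the number was 0 to 2 (0 without any 1 wild-type replicate or Brg1 cKO replicate 3, 2 without Brg1 cKO replicate 2). Without single arrays, 3 to 5 factors did not overlap, in place of 3, with 5 when wild-type replicate 2 was left out. Non-overlap is easier to reach with fewer arrays. The share of all probe sets was not computed for these settings, so that the higher counts are not read as a result. Fits with an array left out have fewer degrees of freedom, and the cause of the changes in the numbers selected was not tested. Foxe3 turned from 0.05 to -0.15 with array weights, and with an array left out its difference ranged from -0.27 to 0.37. In the same fits Mafk ranged from -0.29 to 0.19, Sox1 from -0.34 to 0.05 and Mafg from -0.58 to 0.14. The adjusted p of Prox1 was 0.0481 with a pseudocount of 16 and 0.0104 to 0.112 over all its alternatives. Relative to lens fiber genes, Hsf4 differed by 0.22 without crystallins in the list and by 0.41 with the pseudocount, in place of -0.18. The low-intensity filter left out Sox1 and Foxe3.

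Same-numbered samples share only a number: deviations from the group means correlated at 0.06, 0.082 and 0.125, and a sample was closest to its own number in 0 of 3 pairs. With the replicate number as a block, 0 factors passed (Prox1 adjusted p = 0.0815), and 45 probe sets passed in place of 115. That count was 32 with the pseudocount, 190 with array weights and 24 to 216 with an array left out, with 24, 26 and 36 without wild-type replicates 1 to 3, then 216 and 53 when Brg1 cKO replicates 2 and 3 were left out in turn.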
